A study of Bos indicus with 8 samples.

Results

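Transcripts of 7 genes of the contacts between cumulus cells, and between cumulus cells and the oocyte, were examined in bovine cumulus cells cultured with or without adenosine. They encode the connexins GJA1, GJA4 and GJC1, the junction scaffold TJP1, the cadherins CDH1 and CDH2 and the growth factor KITLG. They are 7 of the 15229 genes that the platform's annotation names, and every probe it pairs with one of their symbols was taken, which gave 10 of the 43794 probes on the array. GJA1 had 2 probes, CDH2 had 3 and each of the others had 1. All but the CDH1 probe, 9 in number, were among the 31923 probes kept by the detection filter, which together covered 12310 named genes.

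Cumulus cells surround the oocyte and are coupled to one another and to it by gap junctions, channels built from connexins through which small molecules such as cyclic nucleotides and metabolites pass. Cadherins hold neighbouring cells together at adherens junctions, and scaffolds such as ZO-1, the product of TJP1, tie junction proteins to the actin cytoskeleton. KIT ligand made by granulosa and cumulus cells binds the receptor KIT on the oocyte. Loss of gap junction coupling and loosening of cell contacts accompany the expansion of the cumulus in response to gonadotrophin.

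The cells came from cumulus-oocyte complexes taken from follicles of 3 to 6 mm in slaughterhouse ovaries, and the labels give the species as Bos indicus. All complexes were cultured for 6 h in a buffered tyrode lactate medium that held gentamicin, pyruvic acid (0.2 mM), fetal bovine serum (10%), 17ß-oestradiol at 1 µg/ml and recombinant human follicle-stimulating hormone (FSH) at 0.5 µg/ml. The adenosine group also received 3 mM adenosine, a purine nucleoside, and the control group none. RNA came from 4 pools a group, each with 10 per pool, and the labels do not say what was counted or whether pools came from separate animals, so the spread behind each p-value is that between these pools, which may be technical. Adenosine and control pools of the same number shared 2 arrays, on which the dyes Cy3 and Cy5 were exchanged. These 4 pool pairs are the replicates, and both groups received FSH, so no value describes the response to FSH itself.

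The share of probes above the detection level lay between 71.0% and 87.4% in each channel of 7 of the arrays. It fell to 45.4% for adenosine and 41.3% for control on the remaining array, that of pair 3 on which Cy3 carried the adenosine pool. Pools 1 and 2 resembled each other, as did pools 3 and 4: the mean absolute difference in log2 level was 0.217 and 0.116 between such control pools and 0.269 to 0.318 between the others. For adenosine pools it was 0.138 and 0.124, and 0.242 to 0.271 between the others. The p-values below treat the 4 pool pairs as independent and can be too small if pairs alike in this way are not. Of 10 measured cumulus and granulosa cell markers, 4 were higher and 2 lower with adenosine, and AMHR2 was not above detection. Among all named genes 21.8% were called higher and 20.8% lower. The summed level of the 10 markers was 26065 to 35603 in adenosine pools and 37074 to 41095 in control pools. This sum was lower with adenosine in all 4 pairs (log2 difference -0.51 to -0.16). INHBA, the brightest of them in control (level 14.76, and 13.78 with adenosine), was 1 of the 2 that fell. Its mean ratio was -0.03 where Cy5 carried the adenosine pool and -1.93 where Cy3 did. These means differed (adjusted p = 7.4e-06, limma). INHA, the next brightest, rose from a level of 12.76 in control to 13.67. The sum was set mainly by its brightest markers and was not computed without INHBA, so its fall does not speak for the other markers. The oocyte markers, 10 of which were measured, gave no call (limma). Their summed level was 1028 to 1123 in adenosine pools and 1025 to 1709 in control pools, with GDF9, DPPA3, ZAR1 and DDX4 not above detection. In RNA from pooled cells, fewer cells of a type and less RNA per cell cannot be told apart.

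The comparison of adenosine with control addressed the effect of adenosine on the cumulus transcriptome. TJP1 and CDH2 probes 2 and 3 were lower with adenosine in all 4 pool pairs and passed the test. CDH2 probe 1, the brightest of that gene, was lower in all 4 pairs and GJA1 in 3 of 4, and neither passed. The probes of GJA4, GJC1 and KITLG gave signals just above the detection level and small mean ratios that did not pass, and CDH1 was not above it. Ratios are given below on the log2 scale as adenosine over control, and a change was called at a p below 0.05 after Benjamini-Hochberg adjustment over all kept probes in limma. Of the 9 kept probes, 3 fell and 0 rose at this threshold. Among all kept probes 18.5% fell and 18.7% rose at it. At an unadjusted p below 0.05, 6 of the 9 fell and 0 rose, beside 14902 of all 31923 kept probes in either direction (limma). With median centring of each array in place of loess, the calls over all probes moved from 5975 higher and 5906 lower to 4719 higher and 7522 lower, and with the authors' own normalization to 6860 and 5219.

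**Figure D1:**
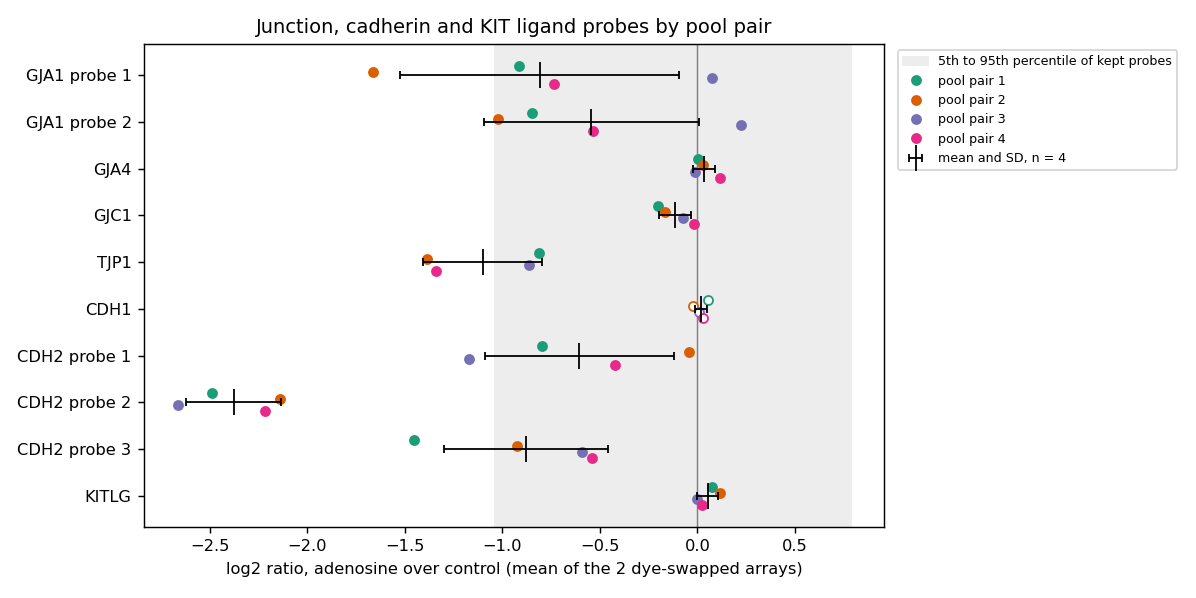
Log2 ratio of adenosine over control of each member probe in the 4 pool pairs (points), with the mean and SD; the grey band spans the 5th to the 95th percentile of all kept probes. The points of CDH2 probe 2 lie between -2.66 and -2.14, outside the band, those of TJP1 between -1.39 and -0.81, and those of GJA4, GJC1 and KITLG between -0.20 and 0.12. CDH1 (open circles) was not kept.

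GJA1 encodes Cx43, the main connexin between cumulus cells. Its brighter probe (probe 1, EMBV3_34634) had normalized levels of 12.11, 11.21, 12.58 and 11.96 (log2) in adenosine pools 1 to 4. In control pools 1 to 4 the levels were 13.02, 12.88, 12.50 and 12.70. The groups overlapped, since adenosine pool 3 lay above control pool 3, while the other adenosine pools lay below every control pool. The pair ratios were -0.92, -1.66, 0.08 and -0.74, with a mean of -0.81 ± 0.71 (SD, n = 4). The mean corresponds to a 1.75-fold lower level, with a 95% confidence interval of the log2 ratio from -1.61 to -0.01 and an adjusted p of 0.105 (limma). Without pool pair 3 the mean was -1.11 (adjusted p = 0.0416, limma, 3 pairs). The dim array of that pair gave -0.03 and its other array 0.18. Without only the dim array the mean was -0.78 and did not pass (adjusted p = 0.125, limma). With pool pair 3 kept, probe 1 passed with the authors' values (-0.94, adjusted p = 0.0205) and with an offset of 0 (-1.08, adjusted p = 0.0309, limma). It also passed with the pair as a block (adjusted p = 0.0113, limma), a fit of all 8 arrays with 1 correlation for all probes. The orientation difference of this probe had an SD of 0.02, beside 0.71 for the pair ratios, so the block p can be too small. Over all alternatives run the adjusted p lay between 0.0113 and 0.474.

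The dimmer GJA1 probe (probe 2, EMBV3_43670) followed the same order of pool pairs. Its levels were 8.62, 8.14, 8.36 and 7.86 in adenosine pools 1 to 4 and 9.47, 9.16, 8.13 and 8.40 in control pools 1 to 4. Pool pair 3 was again the one in which adenosine was higher. The mean ratio was -0.55 ± 0.55 (SD, n = 4, adjusted p = 0.142, limma), with an interval from -1.17 to 0.07. It passed with the pair as a block (adjusted p = 0.0274) and without pool pair 3 (mean -0.80, adjusted p = 0.0213), in a range over alternatives of 0.0213 to 0.719 (limma). The ratio of probe 2 exceeded that of probe 1 by 0.26 ± 0.26 (SD) in 4 of 4 pairs, at an exact two-sided sign-flip p of 0.125, the smallest that 4 pairs allow.

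**Figure D2:**
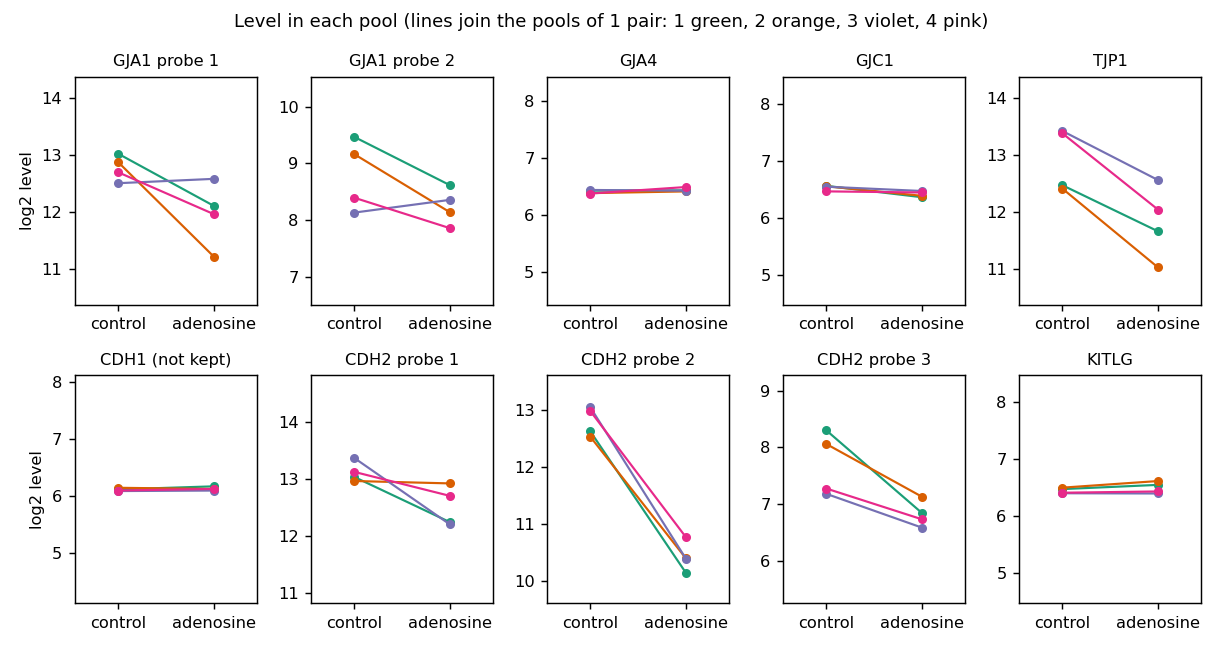
Normalized log2 level of each member probe in the 4 control and the 4 adenosine pools, lines joining the pools of 1 pair; every panel spans the same number of log2 units, and levels are not comparable between probes. All lines of TJP1 and of the 3 CDH2 probes fall, the GJA1 line of pool pair 3 does not, and the lines of GJA4, GJC1, CDH1 and KITLG are almost flat.

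GJA4 encodes Cx37, the connexin through which the mouse oocyte is coupled to its granulosa cells. The single GJA4 probe (EMBV3_29750) had levels between 6.42 and 6.49 in adenosine pools and between 6.38 and 6.44 in control pools, and the groups overlapped. The pair ratios ran from -0.01 to 0.11, with a mean of 0.03 ± 0.06 (SD, n = 4), an interval from -0.05 to 0.12 and an adjusted p of 0.444 (limma). It exceeded the detection level in 7 of 8 channel values of each group, by a median of 1.24-fold with adenosine and 1.30-fold in control. The background offset pulls ratios of so dim a signal towards 0. The mean was 0.08 with an offset of 0 (adjusted p = 0.450) and 0.03 with no background correction (adjusted p = 0.607, limma). Only the authors' values passed, at 0.31 (adjusted p = 0.0186, limma, within a range of 0.0186 to 0.905 over alternatives).

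GJC1 encodes Cx45, another connexin of ovarian somatic cells. Its probe (EMBV3_30368) had levels of 6.37, 6.39, 6.48 and 6.45 in adenosine pools 1 to 4 and of 6.57, 6.56, 6.55 and 6.47 in control pools 1 to 4. The lowest control pool, pool 4, lay just below the highest adenosine pool. All 4 pair ratios were below 0, between -0.20 and -0.02, with a mean of -0.12 ± 0.08 (SD, n = 4), an interval from -0.22 to -0.01 and an adjusted p of 0.0907 (limma). With the pair as a block it passed (adjusted p = 0.0256), as it did from the arrays with adenosine in Cy5 alone (mean -0.14, adjusted p = 0.0427), in a range over alternatives of 0.0256 to 0.513 (limma). The ratio of so dim a probe depended on the background setting: it was -0.31 with an offset of 0 (adjusted p = 0.0633), outside that interval, and -0.21 with the authors' values (adjusted p = 0.122, limma). The signal exceeded detection by a median of 1.16-fold with adenosine and 1.44-fold in control.

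**Figure D3:**
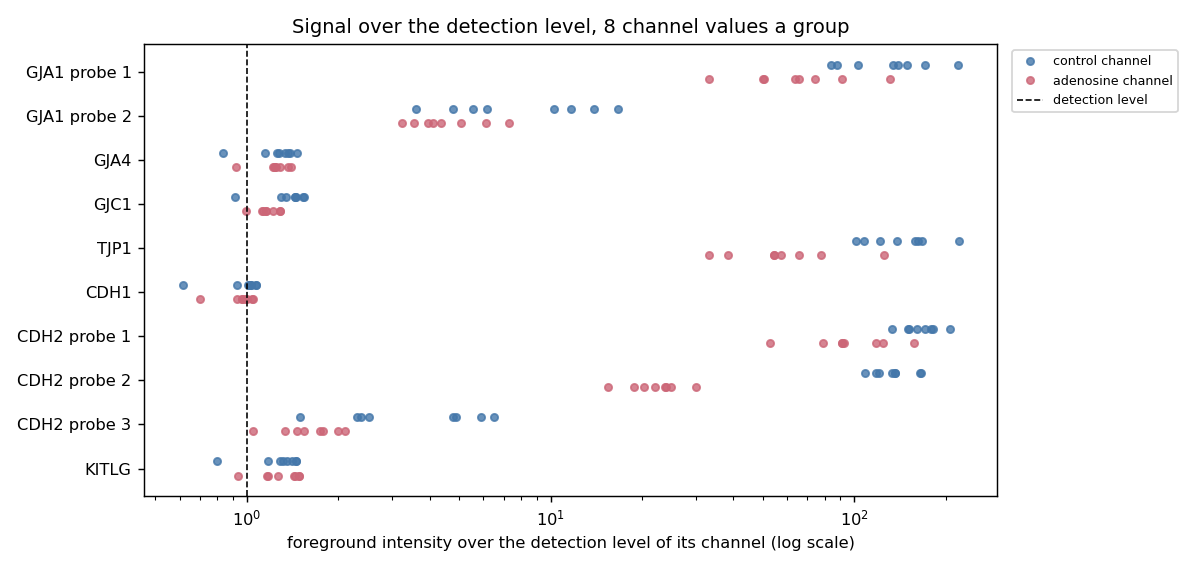
Foreground intensity over the detection level of its own channel (log scale), 8 channel values a group, for each member probe; the dashed line marks the detection level. GJA1 probe 1, TJP1 and CDH2 probes 1 and 2 lie 15.5 to 221 times above it, whereas GJA4, GJC1, CDH1 and KITLG lie around it in both groups.

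TJP1 encodes ZO-1, which binds Cx43 and links tight and adherens junction proteins to actin. Its probe (EMBV3_23257) had levels of 11.66, 11.03, 12.56 and 12.04 in adenosine pools 1 to 4. In control pools 1 to 4 the levels were 12.47, 12.41, 13.43 and 13.39. The groups overlapped across pairs, because pools 3 and 4 were higher than pools 1 and 2 in both groups, and within each pair adenosine was lower. The pair ratios were -0.81, -1.39, -0.86 and -1.34, with a mean of -1.10 ± 0.31 (SD, n = 4), which is 2.14-fold lower (interval of the log2 ratio -1.45 to -0.75, adjusted p = 0.00522, limma). This ratio lay at the 4.55th percentile of all kept probes. TJP1 passed without any 1 of the pool pairs, at ratios from -1.20 to -1.01. It did not pass when pools were compared without their pairing (adjusted p = 0.0885, limma), and the range over alternatives was 1.84e-05 to 0.116.

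CDH2 encodes N-cadherin, the cadherin of granulosa and cumulus cells, and 2 of its 3 probes (probes 2 and 3) fell at the threshold. The brightest, probe 1 (EMBV3_06148), had levels of 12.25, 12.93, 12.21 and 12.71 in adenosine pools 1 to 4 and of 13.04, 12.97, 13.38 and 13.13 in control pools 1 to 4. No adenosine pool reached the lowest control pool, but pool pair 2 differed by little. The mean ratio was -0.61 ± 0.48 (SD, n = 4), with an interval from -1.15 to -0.06 and an adjusted p of 0.0836 (limma). The call depended on the setting: probe 1 passed with the pair as a block (adjusted p = 0.0121), with the authors' values (-0.65, adjusted p = 0.0324) and without pool pair 2 (-0.80, adjusted p = 0.0470), in a range of 0.00837 to 0.436 over alternatives (limma).

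CDH2 probe 2 (EMBV3_07839) showed the largest ratio among the 10 probes. Its levels were 10.14, 10.40, 10.39 and 10.77 in adenosine pools 1 to 4 and 12.63, 12.54, 13.05 and 12.99 in control pools 1 to 4. The highest adenosine pool, pool 4, lay well below the lowest control pool, pool 2. The pair ratios were -2.49, -2.14, -2.66 and -2.22, with a mean of -2.38 ± 0.24 (SD, n = 4), a 5.20-fold lower level (interval of the log2 ratio -2.66 to -2.10, adjusted p = 0.000717, limma). It was number 247 from the lowest among the 31923 kept probes. The signal stayed well above background in both groups, at a median of 22.9 times the detection level with adenosine and 134 times in control.

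CDH2 probe 3 (EMBV3_14850) was the dimmest of the 3, at a median of 1.65 times the detection level with adenosine and 3.65 times in control. Levels were 6.85, 7.13, 6.59 and 6.74 in adenosine pools 1 to 4 and 8.30, 8.06, 7.18 and 7.28 in control pools 1 to 4. The groups did not overlap, and the ratios of pool pairs 1 and 2 exceeded those of 3 and 4 in size. The mean was -0.88 ± 0.42 (SD, n = 4), 1.84-fold lower (interval -1.35 to -0.41, adjusted p = 0.0215, limma). It no longer passed without pool pair 2 (adjusted p = 0.0757) or pool pair 4 (0.0563), nor without the pairing (0.0606), and was -1.40 with an offset of 0, in a range of 0.000343 to 0.0987 over alternatives (limma).

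The ratio of CDH2 probe 2 minus that of probe 1 was -1.69, -2.10, -1.50 and -1.80 log2 units in pool pairs 1 to 4. Probe 3 exceeded probe 2 in all 4 pairs as well, by 1.50 ± 0.47 (SD), while probes 3 and 1 differed by -0.27 ± 0.65 (SD) with no common direction. The exact two-sided sign-flip p was 0.125 for both differences from probe 2 and 0.375 for probes 3 and 1. Adjusted over the 4 probe comparisons made, these were 0.167 and 0.375, and no set of 4 pairs can reach 0.05. The mean of the 3 CDH2 probes was -1.29 and passed (adjusted p = 0.00287, limma). The background offset shrinks the ratio of a probe as dim as probe 3. With an offset of 0 the ratios of probes 1, 2 and 3 were -0.90, -2.63 and -1.40. The sources used here do not give the place of the probes in the transcript, and the RNA was amplified in 2 rounds. CDH2 was the one member whose pools did not overlap between groups, for all 3 probes, and 15.1% of all kept probes had all adenosine pools below all control pools.

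Some markers of other cell types were also lower with adenosine, as TJP1 and CDH2 probes 2 and 3 were. Of 5 stroma markers measured, DCN, LUM and PDGFRA fell (-0.81, -1.61 and -2.15), COL1A1 rose by 0.14 and COL3A1 did not pass. COL1A2 and PDGFRB were not above detection. The rise of COL1A1 averaged orientation means of opposite sign, -0.30 (adenosine in Cy5) and 0.59 (in Cy3). They differed (adjusted p = 4.6e-06, limma), so its direction was not settled. The means of DCN, LUM and PDGFRA were negative in both orientations. The summed level of the 5 measured stroma markers was 1434 to 2149 in adenosine pools and 4833 to 6634 in control pools. The log2 difference lay between -1.75 and -1.56 in all 4 pairs. The part of these markers in the result was not tested. Of 4 theca markers measured CYP11A1 fell (-0.89) and 3 did not pass, with summed levels of 947 to 1646 in adenosine and 1093 to 2350 in control pools. Of 5 immune markers measured CD68 fell (-0.56) and 4 did not pass, with summed levels of 563 to 1335 and 574 to 1750 and a lower sum with adenosine in all 4 pairs. None of the 5 measured endothelial markers (VWF, TEK, CLDN5, ESAM and EMCN) passed, and PECAM1 and CDH5 were not above detection. KRT7 was the 1 surface epithelium marker above detection and did not pass. The part of these lists in the result was not tested either.

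CDH1, which encodes E-cadherin, the cadherin of epithelia and of the oocyte surface, was not kept. Its probe (EMBV3_10570) exceeded detection in 2 of 8 adenosine and 6 of 8 control channel values, at medians of 0.974 and 1.02 times the detection level. Levels lay between 6.10 and 6.17 with adenosine and between 6.09 and 6.15 in control. Any difference in CDH1 was not detectable at this signal.

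KITLG encodes KIT ligand, which in mice acts on oocyte growth through KIT. The single probe (EMBV3_27600) had levels of 6.54, 6.61, 6.39 and 6.43 in adenosine pools 1 to 4 and of 6.47, 6.49, 6.39 and 6.40 in control pools 1 to 4. Adenosine pools 1 and 2 were the highest, and the groups overlapped. The mean ratio was 0.05 ± 0.05 (SD, n = 4), with an interval from -0.03 to 0.13 and an adjusted p of 0.252 (limma), and no alternative passed (range 0.167 to 0.895). It was 0.13 with an offset of 0 and 0.10 with the authors' values. The signal lay at a median of 1.35 times the detection level with adenosine and 1.33 times in control, so these intervals hold for the offset used and a compressed change could lie outside them.

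Each dye orientation was hybridised on 1 slide, so slide and orientation are the same split. The mean of TJP1 was -1.18 where Cy5 carried the adenosine pool and -1.03 where Cy3 did. For CDH2 the means were -0.78 and -0.43 for probe 1, -2.46 and -2.29 for probe 2 and -0.91 and -0.85 for probe 3. For GJA1 they were -0.72 and -0.90 for probe 1 and -0.68 and -0.41 for probe 2. The direction of the mean was the same in both orientations for all 9 kept probes. The orientations differed for 4 of the 9, the 2 GJA1 probes and CDH2 probes 1 and 2, at an adjusted p below 0.05 (limma), against 56.1% of all 31854 probes with both values.

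**Figure D4:**
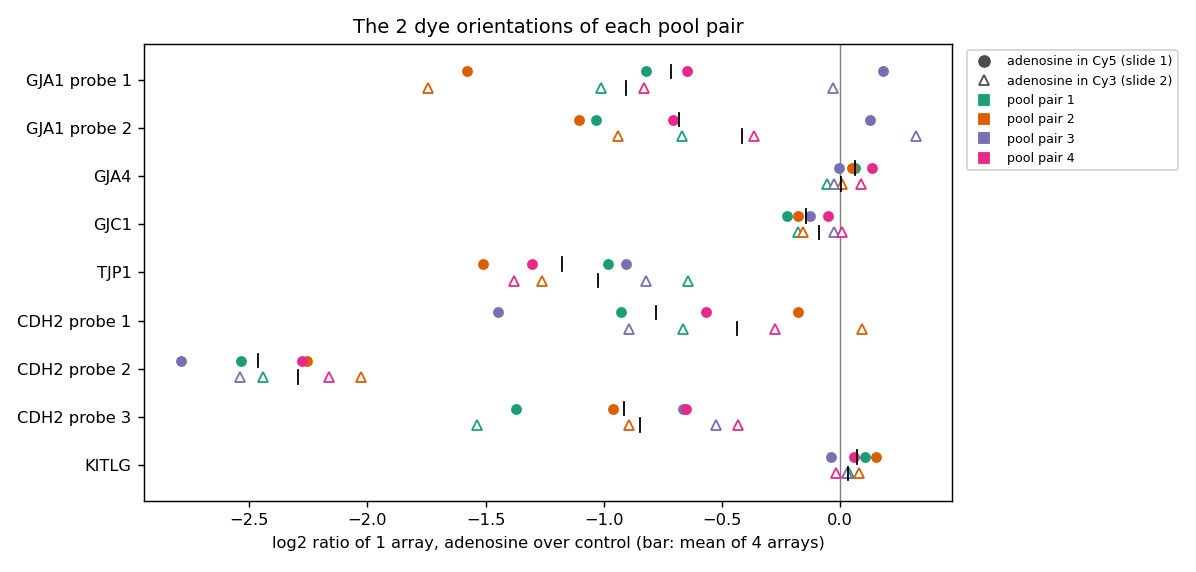
Log2 ratio of each kept member probe on each array, split by dye orientation (filled circles: adenosine in Cy5; open triangles: adenosine in Cy3; bars: means of 4 arrays). The orientation means of CDH2 probe 1 stand 0.34 apart and those of CDH2 probe 2 stand 0.17 apart, and both means lie below 0 for each of these probes.

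The genes with ratios most like those of each member were sought by the root mean square difference over the 8 arrays, with each of the other 12309 named genes read from its brightest kept probe. Nearest to GJA1 were AURKA, a mitotic kinase (0.231), MXI1, a MYC antagonist (0.247), and CSRP2, a LIM domain protein (0.251). Nearest to CDH2 probe 1 were the ferritin receptor gene NCOA4 (0.162), the RNA-binding protein gene RBMX (0.220) and NOP14 of ribosome assembly (0.235). TJP1 lay nearest to NOL7, a nucleolar protein (0.106), BBS5 of the primary cilium (0.131) and WTAP of the RNA methylation complex (0.144). Within a distance of 0.25 there were 2 genes for GJA1, 3 for CDH2 and 80 for TJP1. GJA4, GJC1 and KITLG had 5328, 4811 and 5238 genes within the same distance, with ratios near 0. Their nearest genes were EPHB1, RGP1 and ABI2 for GJA4, TULP3, ZNF507 and DNAJC5 for GJC1, and MXD4, APOC2 and RGS20 for KITLG.

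Further genes of the same structures were counted from 7 lists, each gene read from its brightest kept probe. Of 84 genes measured, 19 fell, 6 rose and 59 did not pass (29.8% called). Among all named genes 42.6% were called, 20.8% lower and 21.8% higher. The median ratio of the 84 genes was -0.03 and that of all named genes 0.003. Read in the same way, 1 of the 6 measured member genes (TJP1) was called.

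Of 11 other connexins and pannexins, 1 fell, 1 rose and 9 did not pass (median 0.02). GJA5, which encodes Cx40, fell by 1.88 ± 0.63 (SD, n = 4, adjusted p = 0.00828, limma). GJA10 rose by 0.16 ± 0.05, at levels of 6.51 with adenosine and 6.35 in control that were as low as those of GJA4. Of 9 partners and regulators of Cx43, 3 fell and 6 did not pass (median -0.25). NEDD4, a ubiquitin ligase that acts on Cx43, fell by 0.88 ± 0.06 (adjusted p = 0.000528, limma). MAPRE1, a protein of microtubule plus ends that bind at junctions, fell by 0.73 ± 0.28, and the kinase gene PRKCD fell by 0.25 ± 0.12. The calls of GJA10 (adjusted p 0.0572, 0.0575 and 0.0780 without pair 1, 2 and 4), PRKCD (0.0756 and 0.110 without pair 1 and 4) and MAPRE1 (0.0627 without pair 4) were thus lost when those pairs were left out. Without the pairing GJA5 (0.0702), PRKCD (0.102) and MAPRE1 (0.0612) did not pass, and GJA10 did not with the authors' values (0.28, adjusted p = 0.0560, limma). With an offset of 0 the ratios were -2.82 for GJA5, 0.41 for GJA10, -1.80 for NEDD4 and -0.44 for PRKCD, and the authors' values gave -1.35 for NEDD4 and -0.39 for PRKCD.

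Of 21 tight junction genes, 2 fell, 2 rose and 17 did not pass (median 0.01). The claudin CLDN12 fell by 2.26 ± 0.77 (SD, n = 4, adjusted p = 0.00862, limma). F11R, which encodes the adhesion molecule JAM-A, fell by 1.71 ± 0.71 on its brightest probe, and the mean of its probes was -0.90. The related JAM2 and JAM3 moved the other way, with rises of 1.08 ± 0.18 (adjusted p = 0.00178) and 0.27 ± 0.11 (adjusted p = 0.0174, limma). JAM3 did not pass without pool pair 1, 2 or 4 (adjusted p = 0.0501, 0.0536 and 0.0821), nor F11R without pool pair 3 (0.0508, limma). Without the pairing JAM3 did not pass (0.390), and its ratio was 0.48 with an offset of 0 and 0.46 with the authors' values.

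Of 14 adherens junction genes, 5 fell, 2 rose and 7 did not pass (median -0.18). CTNNA1, the α-catenin that links cadherin complexes to actin, fell by 0.66 ± 0.08 (SD, n = 4, adjusted p = 0.00121, limma), its orientation means being -0.40 (adenosine in Cy5) and -0.92 (in Cy3). It did not pass without the pairing (adjusted p = 0.0513, limma). VEZT, which encodes a protein of the cadherin-catenin complex, fell by 1.07 ± 0.21, and CDH17 fell by 1.63 ± 0.38 (-2.88 with an offset of 0). CTNNA2 rose by 0.97 ± 0.29, with a mean over its probes of 0.48 and a ratio of 0.61 with median centring, and CDH3, which encodes P-cadherin, rose by 1.12 ± 0.53 but did not pass with median centring or without pool pair 1, 3 or 4 (adjusted p = 0.0679, 0.0696 and 0.0889, limma). CTNNB1, the β-catenin bound by N-cadherin, had a ratio of -0.39 ± 0.59 (adjusted p = 0.288, limma). Its orientation means were -0.01 (adenosine in Cy5) and -0.78 (in Cy3), and they differed (adjusted p = 7.5e-05, limma).

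Of 9 desmosome genes, DSG3 fell by 0.47 ± 0.07, PKP4 rose by 0.41 ± 0.10 and 7 did not pass (median -0.03). DSG2 was read as -0.12 from its brightest probe, but of its 3 probes 1 fell, 1 rose and the mean was -0.73. PKP4 did not pass with median centring (0.15), and DSG3 had -0.97 with an offset of 0 and -0.72 with the authors' values. Of 13 genes of KIT, its adaptors and the proteases that shed its ligand, 5 fell and 8 did not pass (median -0.12). PIK3CA, a catalytic subunit of phosphoinositide kinase, fell by 0.82 ± 0.10 (SD, n = 4, adjusted p = 0.00111, limma), the phosphatase gene PTPN11 fell by 0.51 ± 0.08 and the adaptor gene SHC1 fell by 0.58 ± 0.12. With an offset of 0 PIK3CA had -1.55 and PTPN11 -0.82, and with median centring SHC1 had -0.95. The receptor KIT itself had a ratio of 0.20 ± 0.16 (adjusted p = 0.0960, limma). Of 7 genes of filopodia and of the projections that cumulus cells send through the zona pellucida, 2 fell and 5 did not pass (median -0.28). These were EZR, which encodes the membrane-actin linker ezrin (-1.26 ± 0.56, with -0.66 as the mean of its probes), and CDC42, a small GTPase of filopodia (-0.83 ± 0.40). Without pool pair 4 neither passed (adjusted p = 0.0826 and 0.0855), and CDC42 did not without pool pair 3 (0.0745, limma). Among the 5 genes whose brightest probe did not pass, other probes fell for DAAM1 (2 of 3 kept), MSN (2 of 3) and RDX (1 of 3). The means of their kept probes were -0.38, -0.32 and -0.28. FSCN1 and MYO10 had 1 probe each.

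**Figure D5:**
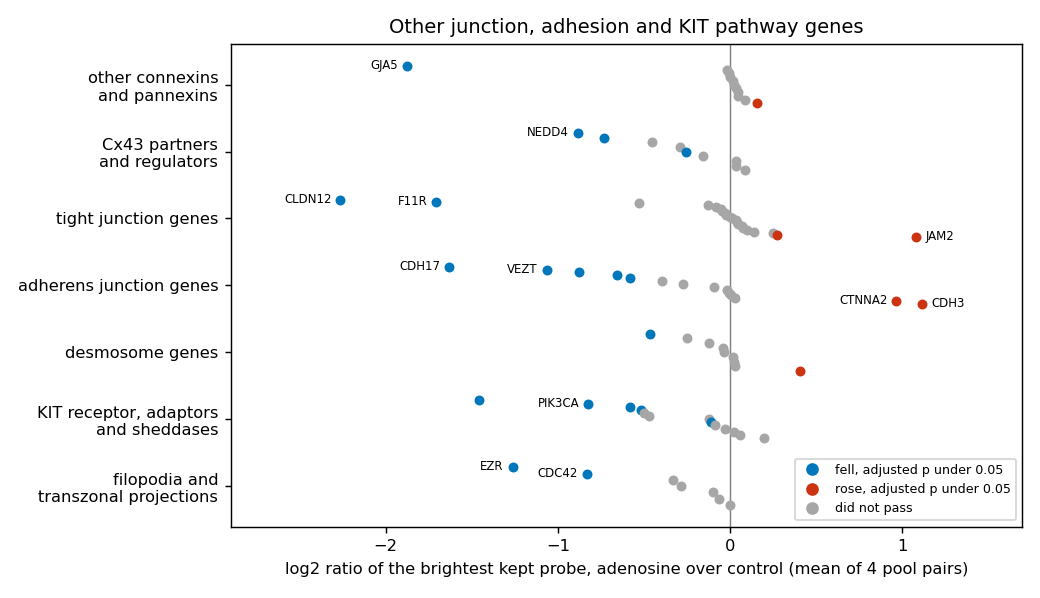
Mean log2 ratio of adenosine over control over 4 pool pairs for each measured gene of the 7 lists, read from its brightest kept probe (blue: fell, red: rose, grey: did not pass). Most genes lie near 0, and 19 blue points face 6 red ones, from CLDN12 at -2.26 to CDH3 at 1.12.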

How the data were processed

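Gene expression was measured on 8 two-colour arrays. Per the file headers, the deposited scanner files hold mean foreground and median background intensity of 45220 spots at 532 and 635 nm, taken as Cy3 and Cy5, neither background-subtracted nor normalized. The authors' value table holds normalized log2 ratios, found by comparison with the scanner values to be adenosine over control on every array (correlation 0.928 to 0.971, array medians 0.00566 to 0.0524); the sources used here do not give their normalization and centring. Per the labels' protocols, RNA was amplified in 2 rounds and labelled chemically.

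In limma 3.58.1 (R 4.3.3), intensities were corrected with normexp (offset 50), which shrinks ratios of dim probes, then loess was run within each array, giving the 1426 control and empty spots weight 0; 128 probe spots marked as ignored were left out. Both arrays of a pool pair were averaged as adenosine over control. The filter kept probes whose foreground lay over the mean + 2 SD of 153 negative control spots on both arrays of at least 3 of 4 pools of either group. Pair means were tested against 0 (lmFit, then eBayes), and p-values were adjusted by Benjamini-Hochberg over all kept probes, with 0.05 as threshold; the procedure was tested on simulated data. Levels per pool are single channels scaled by Aquantile after loess. Same-numbered arrays were checked: their deviations correlated at 0.784 to 0.933 across probes, others at -0.687 to 0.230, and each of the 8 was closest to the array of its own number. The pairing comes from the labels. The number of arrays limits the precision.

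Probe names come from the platform's annotation, and 12516 of 15229 symbols, with all 7 members among them, are in a Bos indicus gene table. For each gene the brightest kept probe was used. The members, lists and tests were chosen with earlier results of these data known. Named were all members, up to 3 genes rising and 3 falling per list by smallest p, and the 3 genes nearest to each member; KIT, CTNNB1 and the cell type markers were named for what they are known to do. Alternatives varied the background correction, offset, normalization, filter, block, orientation and probe rule, and left out each pair. The block setting fitted all 8 arrays, dye swaps included, as observations with 1 correlation shared by all probes. Its p-values can be too small for probes whose dye swaps correlate more closely than that.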

Additional observations from a re-analysis of the deposited data

Results flagged for a closer look

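The lowest of the 4 control pools of GJC1, pool 4 at a log2 level of 6.47, stood apart from the others: its gap to the nearest pool was 0.850 of the group's whole range, above Dixon's critical value for 4 samples. Chance marks about 1 in 20 groups in this way, and 27 groups were examined. The whole range of these control levels was 6.47 to 6.57.

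Of the 9 kept member probes, 4 gave ratios that differed between the dye orientations at an adjusted p below 0.05 (limma, 4 pairs), beside 56.1% of all probes with both values. The difference, adenosine in Cy5 minus adenosine in Cy3, was 0.19 for GJA1 probe 1 (adjusted p = 0.00157) and -0.27 for GJA1 probe 2 (adjusted p = 0.000803), so the 2 probes of 1 gene differed in opposite directions. It was -0.34 for CDH2 probe 1 (adjusted p = 0.000466) and -0.17 for CDH2 probe 2 (adjusted p = 0.00580). Slide and orientation cannot be told apart here.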

How the results depend on the processing

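No member ratio changed sign under any alternative run. The filter, block and unpaired settings left each ratio as it was, so they could not change it, and CDH1 was run in 1 alternative only. Member probes called numbered 3, and 5 with an offset of 0, 6 with the authors' values, 7 with the replicate block, 5 from adenosine in Cy5 only, 1 without pairing or block, 0 in pool pairs 1 and 2 alone (limma; 6 at an unadjusted p below 0.05), and 2 to 5 without 1 pool pair each. Member genes called numbered 1 by the brightest probe, 2 with no background correction, median centring or the mean of probes, 3 with an offset of 0 or Cy5 only, 4 with the authors' values or the block, 1 to 2 without 1 pool pair, and 0 without pairing or in pool pairs 1 and 2 or 3 and 4 alone (limma; 4, 3 and 1 at an unadjusted p below 0.05). CDH2 probe 1 passed at -0.71 with no background correction, -0.90 with an offset of 0 or median centring, -0.65 with the authors' values, -0.61 with the block and -0.78 from Cy5 only (-0.80 to -0.42 without 1 pair); the mean of the 3 CDH2 probes was -1.29. GJA1 probe 1 passed at -1.08 with an offset of 0, -0.94 with the authors' values and -0.81 with the block (-1.11 to -0.53 without 1 pair). GJA4 passed at 0.31 with the authors' values, and GJC1 at -0.12 with the block and -0.14 from Cy5 only. TJP1 stayed at -1.10 but did not pass without pairing or in pool pairs 1 and 2 (adjusted p = 0.116) or 3 and 4 (0.0515) alone, where fewer pairs were tested. The orientation difference passed for 8 probes with median centring against 4.

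Among all kept probes, 31923 in the main run, the calls numbered 11881. They numbered 12175 with no background correction, 13087 with an offset of 0, 12241 with median centring and 12079 with the authors' values. With the replicate block they numbered 13612, and from adenosine in Cy5 only 13994. Without pairing they numbered 7499, and without 1 pair 6610 (without pool pair 4) to 9696. Pool pairs 3 and 4 alone gave 6489. Pool pairs 1 and 2 alone gave 0, or 9419 at an unadjusted p below 0.05 (limma). List genes called numbered 25, 16 in pool pairs 3 and 4, 0 in 1 and 2 (limma; 21 at an unadjusted p below 0.05), and 14 (without pool pair 4) to 22 without 1 pair. The split into pool pairs 1 and 2 against 3 and 4 was chosen after seeing the data. All 21 list genes named for a change kept their sign under every alternative, though the filter, block and unpaired settings could not change it. None of the 21 passed in pool pairs 1 and 2 alone. For other moves the cause was not tested. GJA4, GJC1, KITLG and CDH1 lay so near the detection level that changes in them were poorly measured.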

Other observations

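Other list genes that fell, outside the rule for naming and chosen after their values were seen, were the catenin gene CTNND1 (-0.58 ± 0.25, SD, n = 4), the actin linker gene VCL (-0.88 ± 0.53), the adaptor gene GAB2 (-0.11 ± 0.05) and the protease gene MMP9 (-1.46 ± 0.81), at adjusted p between 0.0170 and 0.0467 (limma). GAB2 exceeded detection in 4 of 8 adenosine and 6 of 8 control channel values, at levels of 6.20 and 6.31. MMP9 did so in 6 of 8 and 8 of 8, at levels of 6.34 and 7.80. CLDN11, the claudin best known from Sertoli cells and myelin, had a mean of 0.10 with an SD of 1.35 between the 4 pool pairs, being lower in 2 of them.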
